A study of Mus musculus with 10 samples.

Results

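The cytosolic ribosomal protein genes were taken as every row of the deposited count files whose symbol names a protein of the large subunit (Rpl, Rplp) or of the small subunit (Rps, Rpsa), with the suffixes a, x, l or l1 allowed. The rule found 83 of 24411 genes, 51 of the large and 32 of the small subunit. In the GENCODE M21 annotation 82 of them are protein coding, and Rps4l, a relative of Rps4x, is a transcribed processed pseudogene. The ribosome reads messenger RNA on its small subunit and joins amino acids on its large one, and each ribosome needs its proteins in fixed numbers. Their messages are among the most abundant of a growing cell and typically begin with a 5′ terminal oligopyrimidine tract, a run of C and T at the start of transcription, through which mTORC1 and the RNA-binding protein LARP1 control translation. In macrophages and microglia, activation through Toll-like receptors places a large demand on protein synthesis, and control of these messages is known mostly at the level of translation, which read counts of total RNA do not measure.

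RNA was sequenced from 4 groups of mouse cells, and all of them received EPZ-6438 at 10 uM for 4 h, an inhibitor of EZH2, the methyltransferase for lysine 27 of histone H3. Primary microglia were shaken off mixed glial cultures after 2 weeks; the cultures came from brains of 3-day-old ICR mice, 12 of them pooled, and over 92% of the cells carried CD11b by the labels' account. They were kept without LPS (PM_EPZ, n = 3) or given bacterial lipopolysaccharide, a ligand of Toll-like receptor 4, at 10 ng/ml (PM_EPZ_LPS, n = 3). The only treatment time recorded for libraries with LPS is also 4 h. BV2, an immortalised mouse microglial line, was treated in the same ways (BV2_EPZ and BV2_EPZ_LPS, n = 2 each). Samples that lacked EPZ-6438 were not analysed here, and no value below is an effect of the inhibitor. Nothing in the labels says that replicates are separate cultures, and a p-value therefore speaks only for the variation among these libraries, some or all of which may be technical.

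Gene counts ran from 2.75 to 3.68 M per library, and the 83 members held 28902 to 145001 of them. The precursor of ribosomal RNA, Rn45s, held 50.3%, 51.7% and 40.9% of a library's gene counts in PM_EPZ, 43.7%, 15.7% and 16.0% in PM_EPZ_LPS, and 27.0% to 30.1% in BV2 libraries. PM_EPZ_LPS replicate 1 stood apart from the other 2 libraries of its group in that share. The summed level of 12 microglia and macrophage markers was 2936 to 3591 CPM in primary and 2136 to 2269 CPM in BV2 libraries. Markers of other brain cells were also present in primary libraries, most of all those of astrocytes (9 markers, 851 to 1551 CPM summed), and 7 of these 9 were at 0 in all BV2 libraries. In such bulk samples fewer cells of a type and less RNA per cell cannot be told apart.

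The starts of transcription are shown for 7 members with an entry in the RefSeq promoter table (build GRCm38.p6), picked as examples. Rpl24 and Rpl7l1 rose most with LPS, Rps7 and Rpl28 differed between the cells in opposite directions, and Rps6, Rplp2 and Rpl7a hold a pyrimidine run at the start. Each sequence runs from 40 bases before the annotated start to 20 after it, on the coding strand. Capitals mark runs of at least 8 pyrimidines (C or T).
Rpl24 (chr16:55966235-55966294, plus strand): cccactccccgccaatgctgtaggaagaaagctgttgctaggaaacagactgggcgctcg
Rpl7l1 (chr17:46782637-46782696, minus strand): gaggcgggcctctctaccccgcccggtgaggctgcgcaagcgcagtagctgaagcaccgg
Rps6 (chr4:86857348-86857407, minus strand): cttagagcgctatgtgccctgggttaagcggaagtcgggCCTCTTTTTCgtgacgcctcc
Rps7 (chr12:28635934-28635993, minus strand): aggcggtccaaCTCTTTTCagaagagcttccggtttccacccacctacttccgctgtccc
Rpl28 (chr7:4792925-4792984, plus strand): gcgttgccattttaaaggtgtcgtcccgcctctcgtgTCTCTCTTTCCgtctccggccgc
Rplp2 (chr7:141447611-141447670, plus strand): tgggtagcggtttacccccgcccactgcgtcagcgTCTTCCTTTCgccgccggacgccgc
Rpl7a (chr2:26910767-26910826, plus strand): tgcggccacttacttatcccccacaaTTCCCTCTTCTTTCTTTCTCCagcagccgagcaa

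In Rps6, Rpl28, Rplp2 and Rpl7a the run spans the annotated start or lies at it. In the 60 bases shown for Rpl24 and Rpl7l1 there is no such run, and none lies within 50 bases on either side of their annotated starts. Of the 62 members with an entry, 52 (83.9%) held a run within 50 bases of a start on the coding strand, against 39.3% of 27025 genes of the table. The core of the ETS factor motif, CCGGAA on either strand, lay within the 300 bases of the promoter window of 34 members (54.8%) and of 16.7% of all genes. A match in these windows is a description of letters, not of a factor's binding, and annotated starts can be off by some bases.

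Levels are given as CPM, read counts brought to a common library size, with sizes scaled by the trimmed mean of M-values (TMM). Compared per kb of each gene's shortest coding transcript, the stalk protein gene Rplp1 and Rpl41, which encodes the smallest ribosomal protein, had the highest mean levels in primary microglia, and their order was not beyond the spread (580 to 885 and 579 to 897 CPM per kb over 6 libraries). Rps29, of the small subunit's head, came next there (480 to 734), and Rplp0, the base of the stalk that recruits elongation factors, lay below both leading genes in all primary libraries (326 to 454). In BV2 cells the order differed. Rplp1 was highest in all 4 libraries (2135 to 2361 CPM per kb), Rplp0 came second by its means (1527 to 1720), and Rpl41 lay lower still (1367 to 1433), within the range of Rpl19 (1336 to 1565). Not divided by length, Rpl41 had 270, 253 and 311 CPM in primary microglia without LPS, 274, 392 and 307 CPM with LPS, and 598 to 626 CPM in BV2 libraries. At the other end Rpl26 and Rpl10l had 0 counts in all libraries, where a count of 0 allows up to 0.814 to 1.09 CPM in a library and covers counting error only. Rpl39l had 3 counts in all, Rpl3l 5 and Rpl30 10, and these 5 members entered no test. Rpl26 and Rpl30 are core genes of every ribosome, while Rpl10l, Rpl39l and Rpl3l are paralogs known from testis or muscle.

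How many reads reach a member depends on its copies elsewhere. Many ribosomal protein genes have processed pseudogenes, and the deposited counts leave out reads that map to several places (7.64% to 11.8% of reads). Exact windows of 101 bases from the members' transcripts recurred in transcripts of other annotated genes for 74 of 83 members, at a median of 38.4% of a member's windows, and for 34 members at more than 50%. Shared windows made up 98.4% for Rps27, 80.1% for Rpl24 and 50.7% for Rpl29, but 1.6% for Rpl7l1. Counts of members with many shared windows are therefore uncertain in level.

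Summed over all 83 members, the level was 12333, 11815 and 13704 CPM in primary microglia without LPS and 13606, 16581 and 15834 CPM with LPS. In BV2 cells it was 39224 and 38338 CPM without LPS and 38604 and 40852 CPM with it. The groups with and without LPS overlapped in both cells, and all primary libraries lay below all BV2 libraries. As a share of the gene counts left after Rn45s, the members made up 2.13%, 2.02% and 2.40% in primary microglia without LPS and 1.68%, 2.23% and 2.13% with LPS. In BV2 libraries the share was 5.80% to 6.33%. The summed level of large-subunit genes was 1.55 ± 0.019 times that of small-subunit genes in primary microglia without LPS (SD, n = 3) and 1.46 ± 0.017 times in BV2 cells without LPS (SD, n = 2).

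**Figure D1:**
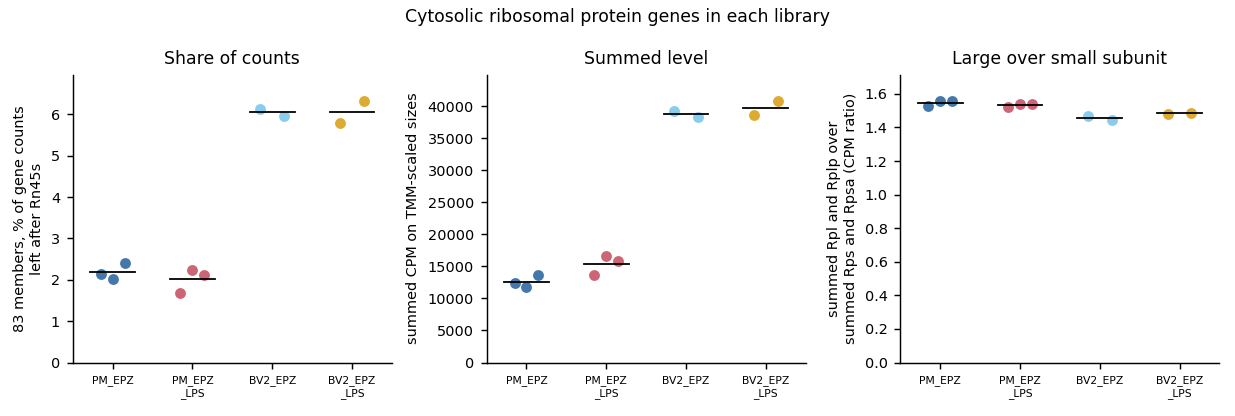
Points are libraries and lines are group means. The left panel plots the members' share of gene counts left after Rn45s (%), the middle panel their summed CPM on TMM-scaled sizes, and the right panel the ratio of summed large-subunit to small-subunit CPM. The 6 primary libraries hold 1.68% to 2.40% and the 4 BV2 libraries 5.80% to 6.33%.

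The first comparison asked how LPS changed these genes in primary microglia under the inhibitor. Of 76 members tested, 25 rose and 0 fell (edgeR quasi-likelihood test, Benjamini-Hochberg adjusted p under 0.05), so 32.9% were called higher, against 21.4% of all tested genes called higher, 17.8% called lower and 39.2% in either direction. The changes were small: the median log2 fold change was 0.26 (quartiles 0.17 and 0.34), beside -0.03 over all 10664 tested genes. In 29 members (38.2%) every library with LPS lay above every library without, against 26.6% of all genes, and in 1 member below, against 22.4%. The rises were spread over both subunits, with 14 of 45 tested large-subunit and 11 of 31 small-subunit genes. Astrocyte markers, summed, lay at 851 to 1411 CPM without LPS and 870 to 1551 CPM with LPS, and fibroblast markers at 106 to 323 CPM without and 82.3 to 138 CPM with it, ranges that overlapped. Markers of the oligodendrocyte lineage did not overlap, at 174 to 182 CPM without LPS and 133 to 165 CPM with LPS. Markers of neurons (85.4 to 87.1 and 75.6 to 89.3 CPM) and endothelial cells (15.1 to 23.3 and 13.1 to 16.8 CPM) overlapped. The part of these cells in the result was not tested.

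Rpl24 and Rpl7l1 rose most. Rpl24 (chromosome 16, 55966275 to 55971435), a large-subunit protein that reaches towards the small subunit, had 128, 111 and 134 CPM without LPS and 209, 248 and 232 CPM with LPS. The groups did not overlap, and its log2 fold change was 0.87 ± 0.12 (SE, edgeR adjusted p = 8.17e-06). The locus of Rpl24 also holds Gm28037, annotated as a processed transcript, on the same strand, and its part in these counts was not tested. Rpl7l1 (chromosome 17, 46773907 to 46782672), a paralog of Rpl7 linked to assembly of the large subunit, had 58.4, 59.7 and 66.5 CPM without LPS and 108, 118 and 109.7 CPM with LPS. Its groups did not overlap either, and its log2 fold change was 0.85 ± 0.12 (edgeR adjusted p = 1.36e-05). These 2 were the only members called higher under the reported fit and all 17 alternatives, with log2 values of 0.48 to 0.94 for Rpl24 and 0.45 to 0.90 for Rpl7l1.

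Rps20 and Rpl9 were among the next largest rises. Rps20 (chromosome 4, 3831334 to 3835665), a protein of the small subunit's head, had 98.5, 102 and 116 CPM without LPS and 140, 166 and 151 CPM with it (log2 fold change 0.52 ± 0.12, edgeR adjusted p = 0.00194). A small nucleolar RNA gene, Gm24016, shares its locus on the same strand. Rpl9 (chromosome 5, 65388364 to 65391444), which lies near the site where elongation factors bind, had 221, 212 and 237 CPM without LPS and 279, 328 and 336 CPM with LPS (0.48 ± 0.11, adjusted p = 0.00208). In both genes the groups did not overlap, and PM_EPZ_LPS replicate 1 was the lowest of the LPS libraries. Each of them was called higher in 16 of the 17 alternatives and missed the threshold with totals without Rn45s.

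Among members known for roles beyond the ribosome, Rps6, the substrate of S6 kinase, had 126, 115 and 150 CPM without LPS and 157, 191 and 193 CPM with LPS (log2 fold change 0.46 ± 0.13, edgeR adjusted p = 0.00781). Rps3, a protein of the messenger RNA entry channel, rose by 0.37 ± 0.11, from 292, 291 and 315 CPM to 346, 434 and 393 CPM (adjusted p = 0.0124). Rpl5, which carries 5S RNA and binds Mdm2 when free, rose by 0.37 ± 0.12, from 210, 185 and 220 CPM to 238, 286 and 278 CPM (adjusted p = 0.0165). In each of these 3 genes the groups did not overlap.
Its partner Rpl11 had 187, 181 and 210 CPM without LPS and 192, 266 and 252 CPM with LPS, groups that overlapped (log2 fold change 0.28 ± 0.13, adjusted p = 0.0872). Rpl13a, known from interferon-responsive control of translation, had 229, 213 and 234 CPM without LPS and 187, 250 and 236 CPM with LPS, which overlapped (-0.02 ± 0.12, adjusted p = 0.923). Rps19, a gene of Diamond-Blackfan anaemia, had 175, 151 and 188 CPM without LPS and 170, 231 and 198 CPM with it, which overlapped too (0.21 ± 0.13, adjusted p = 0.224).

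Of the 3 stalk genes 1 passed the test. Rplp2, which pairs with Rplp1 on the stalk, rose from 166, 181 and 187 CPM to 208, 240.5 and 216 CPM (log2 fold change 0.30 ± 0.11, edgeR adjusted p = 0.0380). Rplp0 had 464, 443 and 537 CPM without LPS and 485, 617 and 585 CPM with LPS (0.21 ± 0.12, adjusted p = 0.164), and Rplp1 311, 289 and 359 CPM without LPS and 331, 442 and 373 CPM with LPS (0.24 ± 0.12, adjusted p = 0.129). The groups overlapped in Rplp0 and Rplp1, and the differences between the 3 genes' responses were not tested. Rpsa, also known as the laminin receptor, had 395, 346 and 406 CPM without LPS and 373, 453 and 416 CPM with LPS (0.10 ± 0.11, adjusted p = 0.503).

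Towards the low end of the range stood Rpl23a (log2 fold change -0.19 ± 0.16) and Rpl28 (-0.17 ± 0.13), and neither passed the test (edgeR adjusted p = 0.387 and 0.304).

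**Figure D2:**
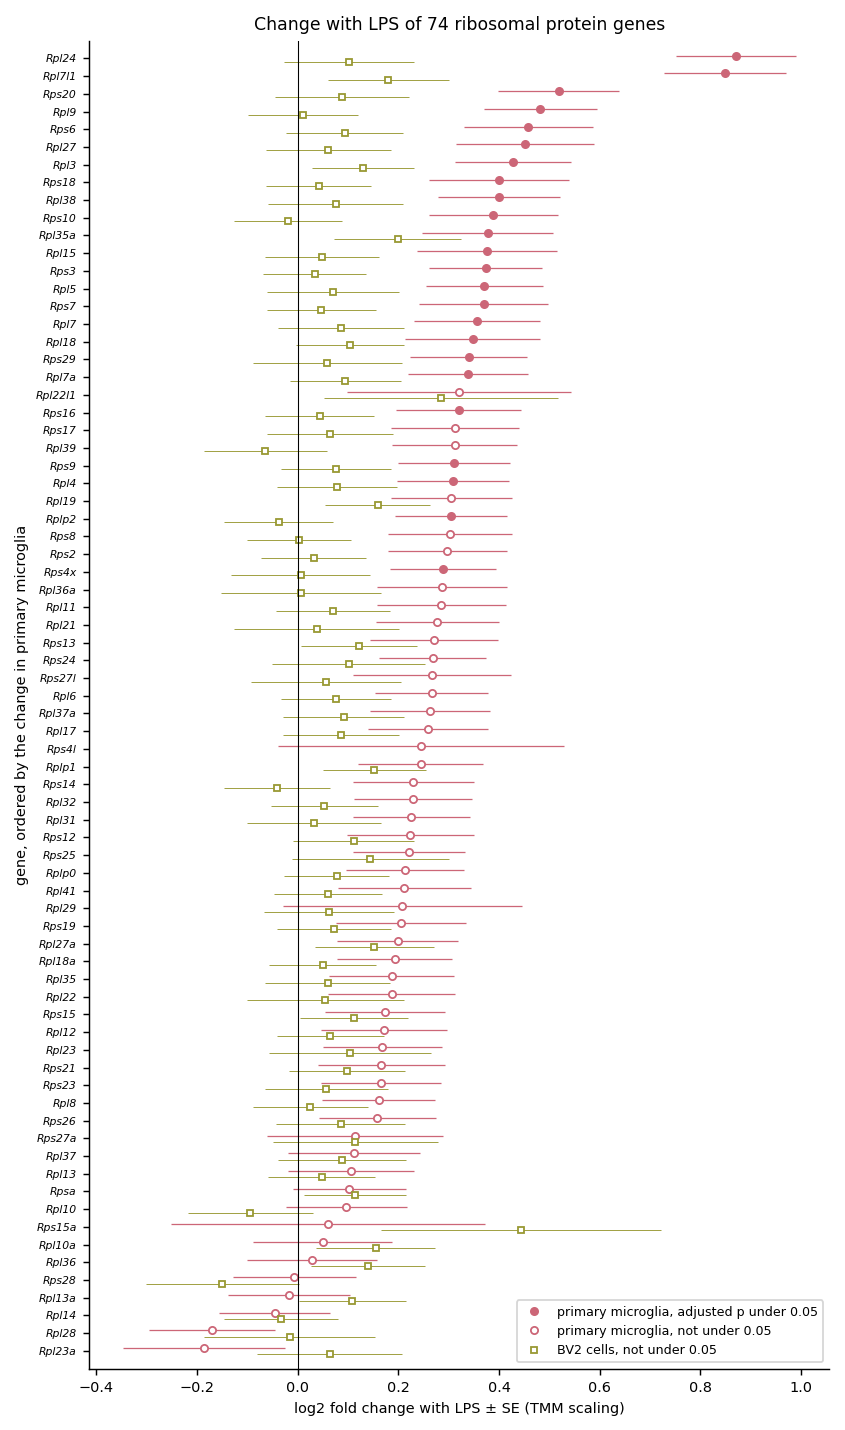
Each line is 1 of 74 of the 76 tested members (the others are not reported here by name), ordered by its log2 fold change with LPS in primary microglia (circles, filled where the adjusted p is under 0.05). Squares are the same genes in BV2 cells and bars are SE; Rpl24 (0.87) and Rpl7l1 (0.85) stand apart at the top, while no BV2 value is above 0.44.

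These calls depended on scaling and on single libraries. With gene count totals without Rn45s and no TMM, a setting chosen after seeing the data, the median of all genes moved from -0.03 to -0.43 and that of the members from 0.26 to -0.13, so the members lay 0.30 above all genes instead of 0.29. Of the 25 members called higher under TMM, 15 turned to values below 0, and 0 of these 15 were called lower. Under that scaling 2 members were higher (Rpl24, 0.48 ± 0.14, and Rpl7l1, 0.45 ± 0.14) and 7 lower, among them Rpl23a, Rpl28, Rpl14, Rpl13a, Rps28 and Rpl36, with log2 values of -0.58 to -0.37. Of all genes 12.0% were then called higher and 41.5% lower. Direction in primary microglia is therefore given under TMM throughout, and only Rpl24 and Rpl7l1 were called higher under both scalings.

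Length moved with the result as well. Over all tested genes, the log2 level within a library changed with each doubling of transcript length by 0.39, 0.39 and 0.30 in primary microglia without LPS. With LPS it changed by 0.32, 0.11 and 0.15. In BV2 libraries the slope was -0.33 to -0.26. The tested members had a median annotated transcript of 834 bases, beside 3110 bases for all tested genes. Offsets were then used that bring each library's trend with length to that of the mean over libraries. With them 9 members were higher with LPS and 3 lower (all genes 23.6% and 16.7%). The members' median was 0.11 beside 0.01 for all genes. Rpl7l1 then had a log2 fold change of 0.85 ± 0.12, Rpl24 0.72 ± 0.10 and Rps20 0.59 ± 0.12, and the lower members included Rpl23a (-0.36 ± 0.14) and Rpl28 (-0.29 ± 0.11). Without PM_EPZ_LPS replicate 1 the offsets gave 16 members higher and 3 lower (all genes 26.4% and 19.9%). The annotated transcript of Rps20 used for this has 3706 bases.

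Leaving out 1 library gave from 7 to 51 members higher and 0 lower. Without PM_EPZ_LPS replicate 1 there were 51 (all genes 25.1% higher and 23.2% lower). Without PM_EPZ replicate 1 or 2 there were 7 each, without PM_EPZ_LPS replicate 2 there were 8 and without replicate 3 there were 11. The share of all genes called is not given for these last fits, so fewer calls among members cannot be told from fewer calls in general. When 1 library was left out, the members' median lay 0.24 to 0.35 above that of all genes. DESeq2's Wald test called 15 members higher (all genes 18.0% higher and 12.8% lower), all of them among the 25. A term that separates PM_EPZ replicates 1 and 2 and PM_EPZ_LPS replicate 1 from the other primary libraries gave 24 higher (all genes 22.5% higher and 19.2% lower).

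**Figure D3:**
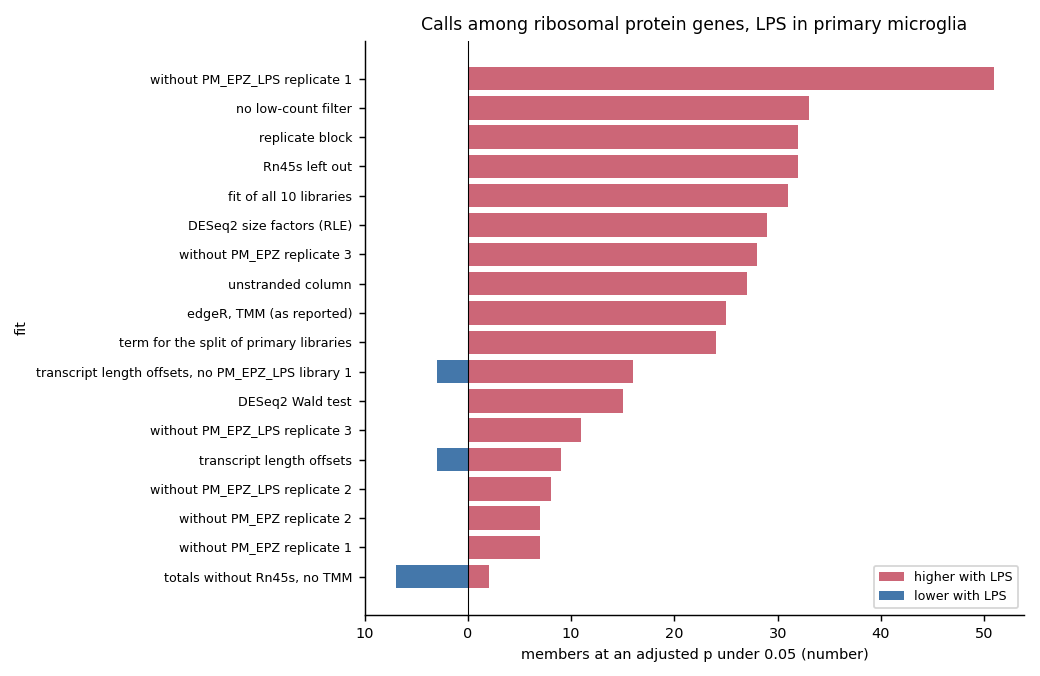
Bars give the number of members at an adjusted p under 0.05 for LPS in primary microglia under each fit, higher to the right and lower to the left of 0. The number higher runs from 2 with totals without Rn45s to 51 without PM_EPZ_LPS replicate 1, and lower calls appear only with those totals (7) and with length offsets (3 each).

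In BV2 cells the same comparison called none of 77 tested members, against 3.69% of 9321 genes called higher, 1.51% lower and 5.2% in either direction. The lowest adjusted p among members was 0.565 (edgeR), and 0 members had an unadjusted p under 0.05, as 14.2% of all genes did (7.66% higher). DESeq2's Wald test also called 0 members (all genes 2.8% higher and 0.612% lower). In 12 members (15.6%) both libraries with LPS lay above both without and in 4 (5.2%) below, against 17.1% and 24.9% of all genes. The median log2 fold change was 0.07, beside -0.01 over all genes, with quartiles of 0.04 and 0.10. Rpl24 had 283 and 257 CPM without LPS and 259 and 307 CPM with it (0.10 ± 0.13, 95% interval -0.18 to 0.38). Rpl7l1 had 230 and 214 CPM without LPS and 243 and 248 CPM with it (0.18 ± 0.12, -0.08 to 0.44), groups that did not overlap. Without BV2_EPZ_LPS replicate 1, which leaves 1 library with LPS, the members' median was 0.15, beside -0.01 over all genes.

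Whether the 2 cells responded differently was tested as an interaction over all 10 libraries. Of 78 members tested, 4 responded more in primary microglia than in BV2 cells and 0 less (5.1%, beside 8.65% of all genes called higher, 3.54% lower and 12.2% either way), with a median difference of 0.22 beside 0.04 over all genes. Among them were Rpl24 (0.82 ± 0.19, edgeR adjusted p = 0.0026), Rpl7l1 (0.72 ± 0.18, adjusted p = 0.00692) and Rpl9 (0.52 ± 0.17, adjusted p = 0.0460). The share of members called was below the share of all genes. DESeq2's Wald test called 2 (all genes 7.06% higher and 2.76% lower). Of 17 alternatives, Rpl24 was called in 16, Rpl7l1 in 14 and Rpl9 in 3, and with totals without Rn45s 0 of the 4 passed. For the other members the difference did not pass the test. Across 75 members tested in both cells the log2 changes correlated at r = 0.18 (rho = 0.02), a description over genes of the same libraries.

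**Figure D4:**
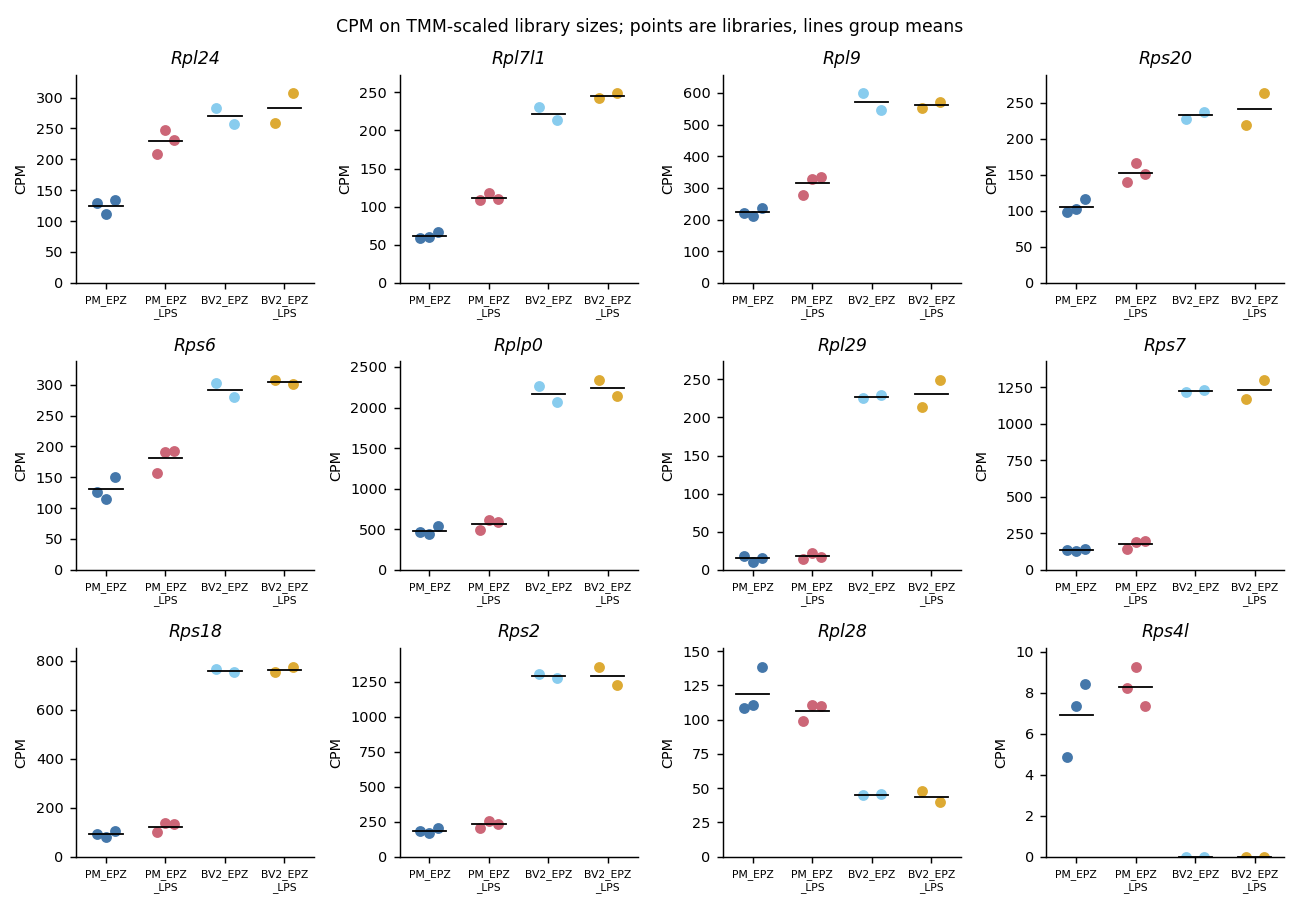
CPM on TMM-scaled sizes of 12 members in every library; points are libraries and lines are group means. Rpl24, Rpl7l1, Rpl9, Rps20 and Rps6 are higher with LPS in primary microglia, Rpl29, Rps7, Rps18 and Rps2 lie far lower in primary than in BV2 libraries, and Rpl28 and Rps4l are higher in primary libraries.

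The next comparison set primary microglia against BV2 cells, both without LPS. Of 78 tested members 72 were lower in primary microglia and 3 higher, so 96.2% were called, against 32.5% of all genes called lower, 41.5% higher and 74.1% either way. In 73 members (93.6%) all primary libraries lay below all BV2 libraries and in 3 above (all genes 37.2% and 46.9%). The median log2 fold change was -1.57, beside 0.23 over all genes. Lower were 45 of 46 tested large-subunit genes and 27 of 32 small-subunit genes. With LPS in both cells 70 members were lower and 3 higher (all genes 30.7%, 43.1% and 73.8% either way), with a median of -1.28 beside 0.29. With LPS the groups did not overlap in 70 lower and 3 higher members (all genes 33.7% and 46.4%). Markers of astrocytes were at 38.0 to 43.0 CPM summed in BV2 libraries, far below the primary ones, and all 6 neuron markers were at 0 there; the part of other cells in these differences was not tested. The primary cells came from pooled newborn brains and the line is immortalised, so cell origin, growth and culture cannot be told apart here.

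Rpl29 (chromosome 9, 106429454 to 106431568), a small large-subunit protein also known as a heparin-binding protein, differed most. It had 18.4, 10.6 and 15.8 CPM in primary microglia and 226 and 229 CPM in BV2 cells without LPS (log2 fold change -3.92 ± 0.18, edgeR adjusted p = 1.19e-16). With LPS the values were 14.1, 21.7 and 16.4 CPM against 214 and 249 CPM (-3.72 ± 0.17, adjusted p = 9.08e-17). Of its 101-base windows 50.7% recurred in 27 other genes, 23 of them pseudogenes, so its counts are uncertain in level.

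Rps7, Rps18 and Rps2, of the small subunit, came next. Rps7 (chromosome 12, 28630854 to 28635953) had 137, 130 and 141 CPM in primary microglia and 1215 and 1227 CPM in BV2 cells without LPS (log2 fold change -3.16 ± 0.13, edgeR adjusted p = 2.06e-17). Rps18 (chromosome 17, 33951999 to 33956001), a protein of the head, had 90.3, 81.4 and 103 CPM against 766 and 752 CPM (-3.05 ± 0.14, adjusted p = 1.07e-16). Rps2 (chromosome 17, 24718116 to 24721929), of the messenger RNA entry channel, had 182, 168 and 207 CPM against 1310 and 1276 CPM (-2.80 ± 0.12, adjusted p = 7.79e-17). The small nucleolar RNA gene Snora64 shares the locus of Rps2 on the same strand.
With LPS the same 3 genes lay at 143 to 196 CPM, 98.3 to 135 CPM and 206 to 251 CPM in primary microglia. In BV2 cells they lay at 1167 to 1296 CPM, 753 to 773 CPM and 1226 to 1356 CPM. Rpl34 was also called lower, on 0, 1 and 3 counts in primary libraries and 7 and 10 in BV2 libraries. Rpl34 and Rps27, both among the 72 lower members, entered this test only through their counts in BV2 libraries. Neither could have come out higher, so their calls add nothing to their counts. Rplp0 had 2270 and 2074 CPM in BV2 cells without LPS, against 443 to 537 CPM in primary microglia (-2.17 ± 0.12, adjusted p = 1.47e-14).

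Rpl28 and Rps4l went the other way. Rpl28 (chromosome 7, 4792874 to 4795066), a large-subunit protein with no counterpart in budding yeast, had 108, 110 and 138 CPM in primary microglia and 44.6 and 45.6 CPM in BV2 cells without LPS (log2 fold change 1.40 ± 0.16, edgeR adjusted p = 7.85e-09). With LPS it had 99.1, 111 and 110 CPM against 47.7 and 39.7 CPM (1.29 ± 0.16, adjusted p = 2.87e-08). Rpl28 overlaps Ube2s on the opposite strand. On the strand opposite to the members lay 0.133% to 1.47% of their stranded reads.

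Rps4l (chromosome 6, 148354656 to 148355598), which lies opposite the gene Tmtc1, had 13, 18 and 24 counts in primary libraries without LPS, 21, 29 and 26 with LPS and 0 in all 4 BV2 libraries. Its level was at least 14.3-fold higher in primary microglia without LPS and at least 18.0-fold higher with LPS, against 3 counts over the BV2 group. Its parent Rps4x had 304, 279 and 315 CPM in primary microglia without LPS and 419 and 455 CPM in BV2 cells (log2 fold change -0.55 ± 0.13, edgeR adjusted p = 3.52e-04). With LPS Rps4x had 346, 377 and 382 CPM in primary microglia and 373 and 482 CPM in BV2 cells, groups that overlapped (adjusted p = 0.123). Rpl28 was called higher in primary microglia under all 17 alternatives, with and without LPS. Rps4l entered these tests only through its counts in primary libraries and could not have come out lower, so its calls add nothing to its counts.

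The lower level of the other members was smaller once transcript length was taken into account. With length offsets, 57 members were lower and 9 higher without LPS (all genes 37.2% and 34.1%), with a median of -0.69 beside -0.06 over all genes. With LPS 54 were lower and 11 higher (all genes 36.8% and 36.0%), with a median of -0.64 beside -0.03. Several members turned direction. Without LPS, Rpl38, known for the translation of Hox messages, was called lower under TMM (-0.81 ± 0.13) and higher with the offsets (0.64 ± 0.13). The same held for Rps28 (-0.40 ± 0.14 and 1.01 ± 0.14) and Rps26 (-0.69 ± 0.13 and 0.36 ± 0.12). Rps29, which binds zinc, was not called under TMM (-0.16 ± 0.14) and was higher with the offsets (1.25 ± 0.12). Of the 72 members lower without LPS, 56 were called lower under all 17 alternatives and 68 under all but the length offsets. The share of all genes that kept a lower call in this way is not given, so these counts do not set the members apart.

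**Figure D5:**
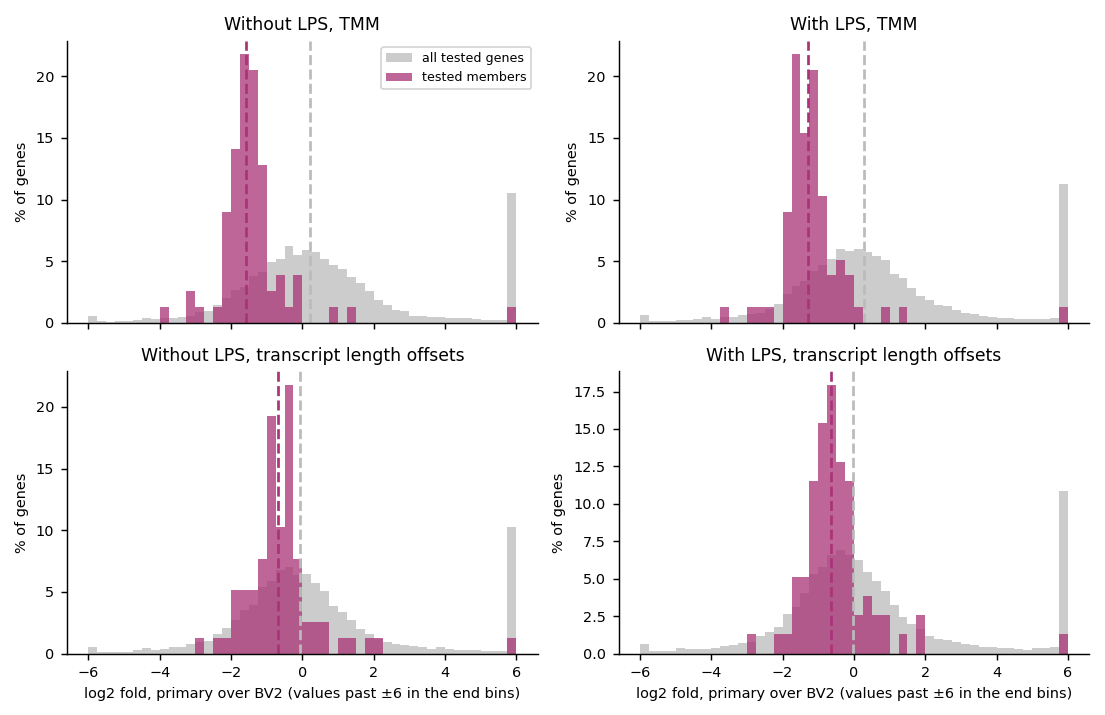
Histograms give the percent of all tested genes (grey) and of tested members (purple) by log2 fold change of primary over BV2 cells, without LPS (left) and with LPS (right), under TMM (top) and with transcript length offsets (bottom). Dashed lines are medians: -1.57 and -1.28 for the members under TMM, -0.69 and -0.64 with the offsets.

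Paralogs and their parents are given side by side, with no comparison of level between genes. Rpl22, an RNA-binding large-subunit protein, had 102, 87.5 and 92.2 CPM in primary microglia without LPS and 257 and 241 CPM in BV2 cells. Its paralog Rpl22l1 had 14.6, 13.1 and 12.7 CPM against 18.1 and 22.1 CPM, and was lower in primary microglia by less (log2 fold change -0.58 ± 0.24, edgeR adjusted p = 0.0329) than Rpl22 was (-1.40 ± 0.14, adjusted p = 2.00e-09), a difference that was not tested. The call for Rpl22l1 held in 10 of 17 alternatives, and with length offsets it turned to 0.63 ± 0.23 (adjusted p = 0.0168). Rps27l, a p53 target, had 41.6, 36.8 and 46.4 CPM against 126 and 138 CPM (-1.66 ± 0.16, adjusted p = 3.75e-10). Its parent Rps27 had only 67 counts over all libraries, with 98.4% of its windows shared with other genes. It had 4, 3 and 3 counts in primary microglia without LPS, 3, 5 and 3 with LPS, 16 and 8 in BV2 cells without LPS and 9 and 13 with LPS. Rpl7, the parent of Rpl7l1, had 288, 256 and 330 CPM in primary microglia without LPS and 324, 378 and 426 CPM with LPS (0.36 ± 0.12, adjusted p = 0.0306).
Rpl3, which lines the peptidyl transferase centre and is the parent of Rpl3l, had 275, 270 and 327 CPM without LPS and 353, 409 and 421 CPM with LPS (0.43 ± 0.12, adjusted p = 0.00626). Rpl10, which lets the subunits join and is the parent of Rpl10l, had 85.8, 77.7 and 79.9 CPM without LPS and 85.8, 82.3 and 94.1 CPM with LPS (0.10 ± 0.12, adjusted p = 0.562). Rpl39, a protein of the exit tunnel and the parent of Rpl39l, had 112, 120 and 131 CPM without LPS and 129, 159 and 166 CPM with LPS (0.31 ± 0.12, adjusted p = 0.0552). Rps27a, made as a fusion with ubiquitin, had 31.5, 37.2 and 30.3 CPM without LPS and 45.4, 32.5 and 30.6 CPM with LPS (0.11 ± 0.17, adjusted p = 0.643).

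Promoter letters were counted in called and other members. Of 25 members higher with LPS in primary microglia, 20 had a RefSeq entry and 16 of these held a pyrimidine run near a start. Of 51 tested members not called, 36 had an entry and 31 held one. Across members the log2 change with LPS in primary microglia had a rank correlation of 0.0096 with transcript length and 0.083 with the percent of shared windows (n = 76), as descriptions.

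Genes around the ribosome were counted from lists of the translation machinery. Beside 21.4% of all tested genes called higher and 17.8% called lower with LPS in primary microglia, 8 of 27 tested ribosome biogenesis genes rose and 1 fell, led by Wdr43 (log2 fold change 0.99 ± 0.27, edgeR adjusted p = 0.00854) and Ltv1 (0.98 ± 0.26, adjusted p = 0.00518), with Ncl, the nucleolin gene, lower (-0.42 ± 0.15, adjusted p = 0.0341). Of 20 other genes listed for oligopyrimidine starts, translation factors among them, 5 rose and 2 fell, with Btf3 at 0.64 ± 0.12 and Eif4b at -0.63 ± 0.12. Of 5 ribosomal protein genes whose symbols lie outside the rule, Gnb2l1, the scaffold RACK1, rose (0.40 ± 0.12, adjusted p = 0.00952). Of 75 mitochondrial ribosomal protein genes, 13 rose and 1 fell, led by Mrpl30 (1.26 ± 0.24) and Mrpl52 (1.21 ± 0.17). Of 18 genes of mTORC1 and its control of these messages, 3 rose and 3 fell. Larp1, which binds the oligopyrimidine start and holds such messages untranslated, rose from 130 to 385 CPM (1.55 ± 0.11, adjusted p = 8.88e-10), and Rragd, a GTPase that brings mTORC1 to the lysosome, fell from 73.1 to 18.3 CPM (adjusted p = 1.43e-09).

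Between the cells without LPS, these lists, apart from those of mTORC1 and of ribosome rescue, were mostly lower in primary microglia, beside 32.5% of all genes lower and 41.5% higher. Of 28 ribosome biogenesis genes 27 were lower and 0 higher (median -2.23), led by Nhp2 (-4.09 ± 0.23), and of 77 mitochondrial ribosomal protein genes 68 were lower and 2 higher (median -1.53). Of the 20 other genes listed for oligopyrimidine starts, 17 were lower and 1, Eif3f, was higher (1.00 ± 0.18, edgeR adjusted p = 2.34e-05). All 8 small nucleolar RNA host genes and all 5 ribosomal protein genes outside the rule were lower. Of 18 genes of the mTORC1 list 6 were higher and 3 lower. Of 6 tested ribosome rescue genes 1 was higher and 3 lower, and of 14 RNA polymerase I genes 0 were higher and 13 lower. All results for these lists are given under TMM only. The part of transcript length in them was not tested.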

How the data were processed

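The members and gene lists were chosen with earlier results of these data known. Per the labels' protocols, ribosomal RNA was depleted and a directional kit used. The submitters' processing notes name CASAVA 1.8.2, Trimmomatic 0.33, STAR 2.5.1, DESeq2 (no version) and mm10. The authors deposited whole-number read counts per gene, whose annotation was not given in the sources used here. Of the strand columns, the reverse one was used. Entries that name no gene (70.4% to 79.5% of reads) were left out.

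Counts were tested with edgeR 4.0.16 (R 4.3.3): quasi-likelihood, TMM, filterByExpr (minimum count 10, total 15), Benjamini-Hochberg adjustment over all genes tested, threshold 0.05. LPS was tested within each cell, and the other comparisons were fitted on all 10 libraries. Alternatives were DESeq2 1.42.0, its size factors, no filter, the unstranded column, Rn45s left out, transcript length offsets, a replicate block, a term for the split of primary libraries, all 10 libraries in one fit, leaving out each library and, added after seeing the data, totals without Rn45s and length offsets without PM_EPZ_LPS replicate 1. Deviations from group means of primary libraries with the same number correlated at 0.181, -0.077 and 0.194, and of those with different numbers at -0.3 to 0.197. With 3 libraries a group these values cannot decide whether numbers pair samples, and the labels do not say. No replicates matched within sampling noise (lowest chi-square per degree of freedom 1.52).

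By a fixed rule, values of single libraries are given for paralog pairs, stalk genes, Rpsa, Rpl5, Rpl11, Rps6, Rpl13a, Rps3, Rps19, the 5 largest called rises and falls of a comparison, and the 3 highest and lowest members per kb. For many of these genes the values printed cover only some of the 4 groups, and their differences between the cells are not all given. Some members that this rule covers are not reported here by name, though all counts include them. Of genes, 98.4% matched GENCODE M21 annotation. Promoters came from RefSeq (62 of 83 members).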

Additional observations from a re-analysis of the deposited data

Results flagged for a closer look

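Of 78 members tested, 4 (5.1%) responded more to LPS in primary microglia than in BV2 cells, beside 8.65% of all genes (edgeR interaction test). The 3 named here had a larger log2 change in primary cells by 0.82 (Rpl24), 0.72 (Rpl7l1) and 0.52 (Rpl9). Of 17 alternatives, Rpl24 was called in 16, Rpl7l1 in 14 and Rpl9 in 3. In BV2 cells the 95% interval of each gene's own response included 0, from 2 libraries a group.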

How the results depend on the processing

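For LPS in primary microglia the 25 members called became 15 with DESeq2's Wald test, 12 with transcript length offsets (9 higher, 3 lower), 9 with totals without Rn45s (2 higher, 7 lower) and 7 to 51 when 1 library was left out. In BV2 cells leaving out 1 library leaves 1 in a group. The members' median was then 0.017 to 0.15, beside -0.01 to 0.018 over all genes. The 4 members whose responses differed became 2 with DESeq2 size factors, 2 with DESeq2's Wald test, 2 with Rn45s left out, 2 with length offsets, 0 with totals without Rn45s and 1 to 4 when 1 library was left out. Among these alternative interaction fits, the share of all genes called is given above only for DESeq2's Wald test. Between the cells the total of calls in both directions stayed within 1.5 times the reported one. With length offsets, however, the higher calls went from 3 to 9 without LPS and from 3 to 11 with LPS.

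With totals without Rn45s, log2 changes with LPS in primary microglia turned to -0.037 for Rpl7, -0.11 for Rps4x, -0.090 for Rplp2, -0.023 for Rpl5 and -0.019 for Rps3, while all genes moved down; of the 25 called members 15 turned. With length offsets, primary over BV2 turned to 0.63 for Rpl22l1, 0.21 for Rps4x and 0.24 for Rpl41 without LPS. With LPS it turned to 0.51, 0.37 and 0.20, though Rps4x was not called there under TMM (edgeR adjusted p = 0.123). In all, 6 of 75 called members turned without LPS and 6 of 73 with LPS. The cause was not tested. With the replicate block, 32 members were called for LPS in primary microglia and 0 in BV2 cells, though whether numbers pair samples is not known. The members' median in primary microglia was then 0.262, beside -0.029 over all genes. The share of all genes called with the block is not given.

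For 8 members counts were few or 0, which limits what can be said of them; why they are low was not tested.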
